A study of Mus musculus with 36 samples.

Results

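The 37 genes described here drive or carry out DNA replication and cell division, and were taken by symbol from a list of licensing, replication, cyclin, cyclin-dependent kinase (CDK) and mitosis genes. They are 37 of the 21699 genes in the count tables, and all 37 passed the filter on low counts at both stages. By role, 12 act in replication licensing and at the fork, 3 supply nucleotides, 9 are G1 and S phase cyclins, CDKs or the retinoblastoma gene Rb1, 12 act in G2 and mitosis, and 1 is the CDK inhibitor Cdkn1c. They were measured by bulk RNA-seq in mouse fetal gonads of 4 genotypes, which are controls and KO of each chromosomal sex (XY control, XY KO, XX control, XX KO). The KO gonads carry Tg(CAG-cre)1Nagy, a Cre driven by the broadly active CAG promoter, and have lost both copies of the microRNA cluster miR-17~92 (del/del), so the loss was not restricted to 1 cell type. The controls are labelled WT, and whether they carry Cre or a deleted allele is not given in the sources used here. Gonads with their attached mesonephros were taken at embryonic stage E11.5, and isolated gonads at E12.5, with 3 libraries for each genotype and stage and 2 pairs of gonads pooled in each library. The groups were compared within a stage, since tissue and library kit differ between the stages.

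A cell that is to divide first loads the MCM helicase onto replication origins with the help of Cdc6 and Cdt1, which licenses them. D-type cyclins with Cdk4 or Cdk6, and then E-type cyclins with Cdk2, inactivate the retinoblastoma protein and release E2F factors, which switch on S phase genes. Genes of G2 and mitosis follow later in the cycle. Many of them carry in their promoters a CHR element, through which the DREAM complex holds them down in resting cells. Many also carry CCAAT boxes. CDK inhibitors of the p21 family (Cdkn1a, Cdkn1b, Cdkn1c) stop the cycle. In the mouse gonad, proliferation of the coelomic epithelium and of early supporting cells is a known feature of the XY gonad around sex determination, whereas pre-granulosa cells of the fetal ovary are known to leave the cycle and to express Cdkn1b.

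The promoters of the mitotic genes shared short sequences that those of most genes lacked. Of the 37 members, 27 had a promoter in the RefSeq table (GRCm38.p6), as the window from 250 bases before to 50 bases after the transcription start, read on both strands. CHR letters (TTTGAA or TTCGAA) lay in the windows of 8 of 10 mitotic members (80.0%) and of 21.7% of all 27025 genes in the table. CCAAT lay in those of 9 of 10 mitotic members (90.0%) and 41.1% of all genes. It also lay in the windows of 7 of 9 licensing and replication members (77.8%) and 2 of 5 G1 and S members (40.0%). E2F letters (TTTCCCGC, TTTGGCGC, TTTCGCGC or TTTGCCGC, whose matches on opposite strands can overlap) lay in those of 6 of 9 licensing and replication members (66.7%) and 2.6% of all genes. A match of letters is a description and not a binding site. The windows below show the letters in capitals, in the gene's own direction, for 4 mitotic genes that were lower in XY KO gonads at E12.5 and for 2 licensing genes that were lower there.
Plk1, chr7:122159453-122159482, plus strand: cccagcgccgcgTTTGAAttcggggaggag
Cdk1, chr10:69352910-69352939, minus strand: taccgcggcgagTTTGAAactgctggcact
Aurka, chr2:172370521-172370550, minus strand: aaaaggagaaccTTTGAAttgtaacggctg
Cdc20, chr4:118437344-118437373, minus strand: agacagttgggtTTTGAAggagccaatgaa
Mcm5, chr8:75109345-75109374, plus strand: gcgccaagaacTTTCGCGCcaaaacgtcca
Cdc6, chr11:98908002-98908031, plus strand: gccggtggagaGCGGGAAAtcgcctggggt
In the Cdc6 window the E2F letters stand on the opposite strand, so the capitals are their reverse complement.

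Total counts ran from 17150620 to 34077443 per library at E11.5 (median 22053404) and from 11877379 to 44155275 at E12.5 (median 21673453). Levels are given in CPM, the count relative to the TMM-scaled total of the library, and fold changes are on the log2 scale ± SE from 1 edgeR model of the 12 libraries of a stage. A gene was called when its Benjamini-Hochberg adjusted p over all genes tested (FDR) was under 0.05. The host gene of the cluster, Mir17hg, stood at 17.6 to 44.6 CPM in E11.5 controls and at 98.2 to 154 CPM in E11.5 KO libraries, and at 13.4 to 37.3 and 66.7 to 83.8 CPM at E12.5. That count covers the whole host gene and not the deleted microRNAs, so it does not check the deletion. Xist and Ddx3y sorted all 24 libraries by their labelled sex. At E11.5 the library XY control replicate 2 stood apart from the other XY controls for several members. At E12.5 the library XX KO replicate 3 had the lowest summed level of germ cell markers. Results that rest on either are given with and without it. XX KO replicate 2 also weighed on the E12.5 calls: without it 1828 genes were called in XX KO against XY KO, in place of 22. Member counts without XX KO replicate 2 are given as well.

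Per kilobase of exon, the levels of the 37 genes spanned a wide range, with the same genes at the top and the bottom at both stages. Cdkn1c, which encodes p57, was the highest at 466 CPM per kb at E11.5 and 278 at E12.5 (means over 12 libraries). Cdk4 came next at 216 and 169 CPM per kb, while Cdk6, its close relative, was the lowest member at 0.815 and 0.702 CPM per kb. Cdk4 made up 99.5 to 99.7% of the summed Cdk4 and Cdk6 level per length in each genotype mean at E12.5. Among the licensing genes, Mcm6 stood at 91.2 CPM per kb at E12.5, with Mcm3 at 84.7 and Mcm4 at 79.7. Mcm10 and Cdc6 were far lower at 6.34 and 7.32 CPM per kb. At E12.5 the spread over libraries was wide for Cdkn1c (59.6 to 501 CPM per kb) and narrow for Cdk2 (14.0 to 15.9 CPM per kb).

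**Figure D1:**
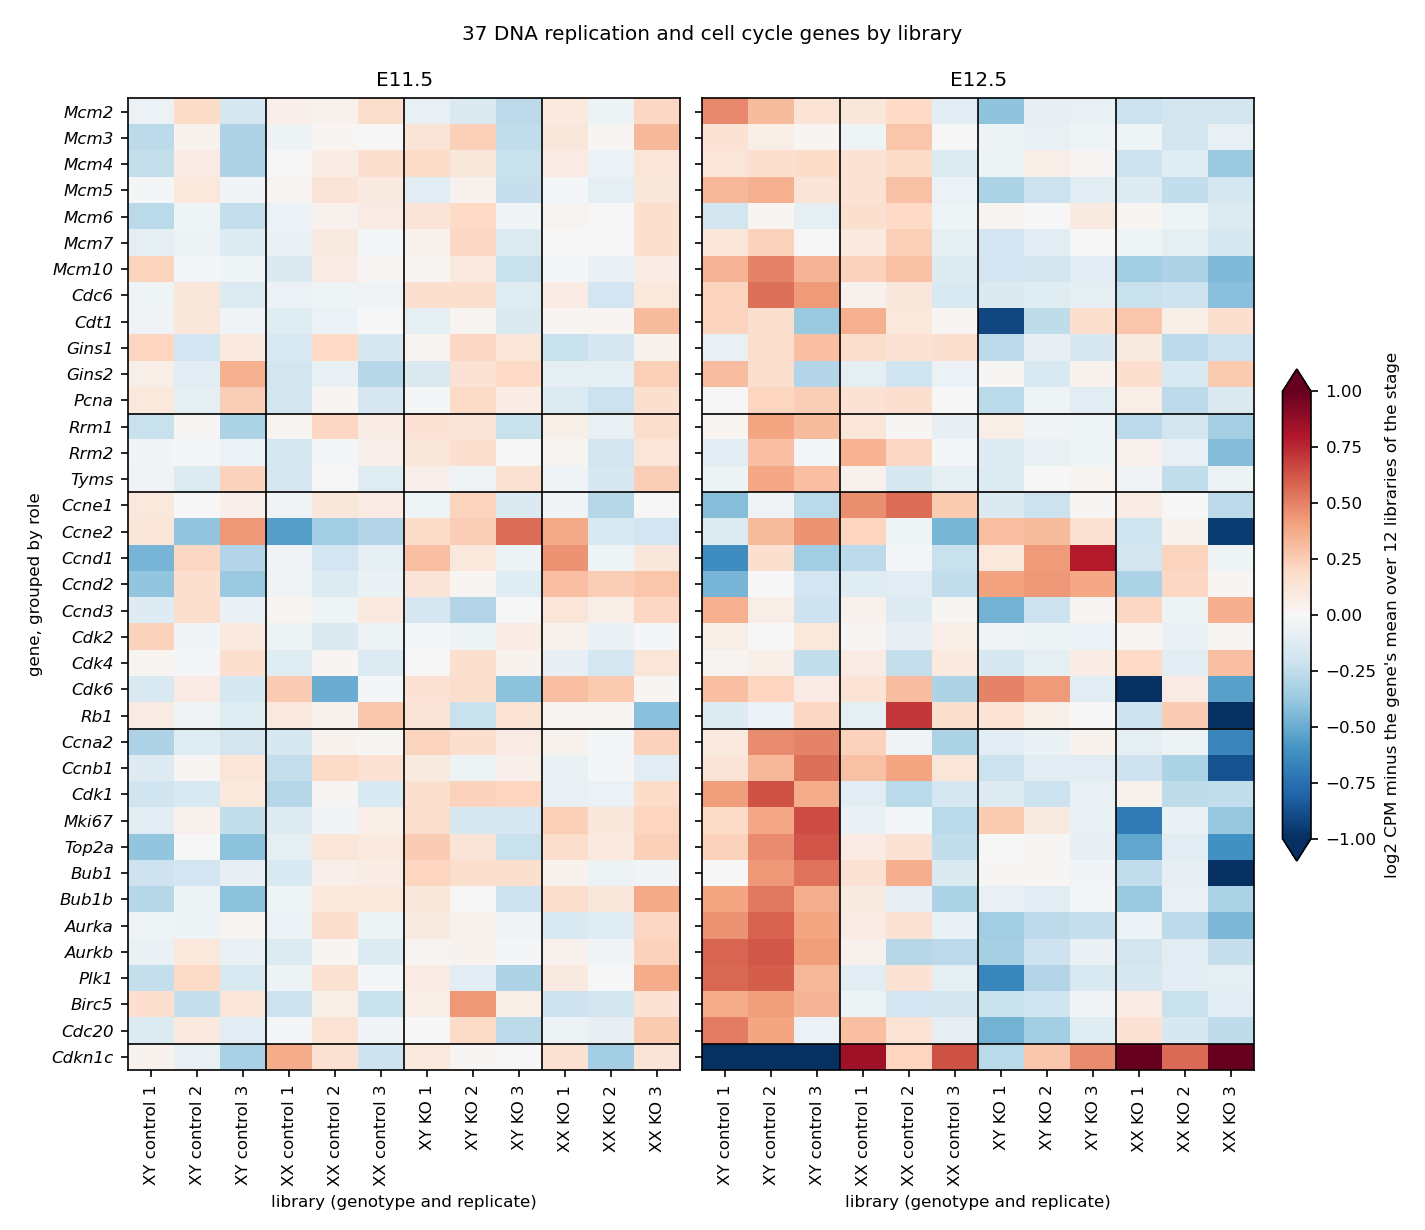
Heat map of the 37 genes, grouped by role (rows), in the 12 libraries of each stage (columns), with colour for the log2 CPM minus the gene's mean over the 12 libraries of the stage. At E12.5 the block of 12 G2 and mitosis genes is highest in the 3 XY control libraries, whose average deviation is 0.33 to 0.49, against -0.43 to 0.08 in the other 9 libraries.

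At E11.5 few members passed the test. None passed between XX and XY control gonads, where edgeR called 0.886% of all genes. An unadjusted p under 0.05 was found for 6 members and for 2546 of the 14217 genes tested. In XY KO relative to XY control gonads 2 of 37 members passed, both higher, in a comparison where 12.7% of all genes were called, and the median change of the members was 0.07 against -0.03 for all genes. In XX KO against XX control gonads 0 passed, with 3.27% of all genes called. There 2 members and 2228 of all genes had an unadjusted p under 0.05. XX KO set against XY KO gave 0 as well, where 0.0844% of the genes tested passed. Here 4 members and 2291 of all genes had an unadjusted p under 0.05. The effect of the deletion differed between XY and XX gonads for 0 members, with 0.0352% of all genes called. In that test 1 member and 1825 of all genes had an unadjusted p under 0.05. DESeq2 called 0 members in each of these 4 comparisons with no call, and 3 in XY KO against XY control. These p-values measure the spread between pools of gonads, and the sources used here do not say whether pools came from separate litters.

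The 2 members called at E11.5 were mitotic. Ccna2 (chr3:36564865-36572150, GRCm38), the cyclin of S phase and mitotic entry, stood at 145, 166 and 158 CPM in XY controls and at 210, 203 and 190 CPM in XY KO. It stood at 161, 184 and 181 CPM in XX controls and at 185, 179 and 211 CPM in XX KO. The XY KO libraries were thus all above the XY controls, and the XX groups overlapped. The XY KO difference was 0.36 ± 0.09 (FDR 0.0204 by edgeR). Bub1 (chr2:127801122-127831865), a kinase of the spindle checkpoint, stood at 95.2, 96.4 and 104 CPM in XY controls and at 128, 124 and 123 CPM in XY KO, again without overlap, with a difference of 0.34 ± 0.08 (FDR 0.0141 by edgeR). Cdk1, the kinase that starts mitosis, stood at 108, 112 and 134 CPM in XY controls and at 139, 146 and 144 CPM in XY KO, and missed the threshold (0.28, FDR 0.0907).

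The 2 calls at E11.5 were lost when the libraries were corrected for GC content and length together. Across genes, the log2 level relative to the stage mean correlated with transcript GC content at a Spearman rho of -0.52, -0.28 and -0.36 in the 3 XY KO libraries and of 0.23, 0.34 and 0.12 in the 3 XY controls, as a description over 14184 genes that share each library. With transcript length it was 0.23, -0.08 and -0.19 in XY KO and -0.16, 0.11 and -0.35 in XY controls. The mitotic members had a median GC content of 47.6%, against 49.9% for all genes tested. After the joint correction, chosen after seeing the data, the differences were 0.27 for Ccna2 (FDR 0.0821) and 0.15 for Bub1 (FDR 0.259), 0 of 37 members passed, and 6.70% of all genes were called. The parts of GC content and of length were not tested separately. Without XY control replicate 2, 6 members passed in XY KO against XY control, Mcm6, Ccnd1, Ccnd2 and Top2a being the added ones, and 6 in XX control against XY control, but 20.4% and 17.6% of all genes were then called in these comparisons. Of a wider list of 58 mitosis genes, 15 were called higher in XY KO gonads and 0 lower, led by the condensin genes Smc2 (0.46) and Ncapg (0.45), against 5.88% of all genes called higher. After the correction 0 of the 58 were called, and their median change was 0.13 in place of 0.19.

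Markers of other cell types moved with the XY KO genotype at E11.5 too. Of 8 Sertoli cell markers 7 were lower in XY KO gonads, with a summed level of 57.1 to 70.8 CPM against 172 to 264 CPM in XY controls. Also lower were 2 of 10 germ cell markers, the steroidogenic genes Cyp11a1 and Nr5a1 and the macrophage gene Csf1r. Of 8 pre-granulosa markers, 2 were higher (Foxl2 and Bmp2) and 2 lower (Wnt4 and Runx1). Of all genes, 6.81% were called lower and 5.88% higher in this comparison. Their part in the mitotic values was not tested.

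**Figure D2:**
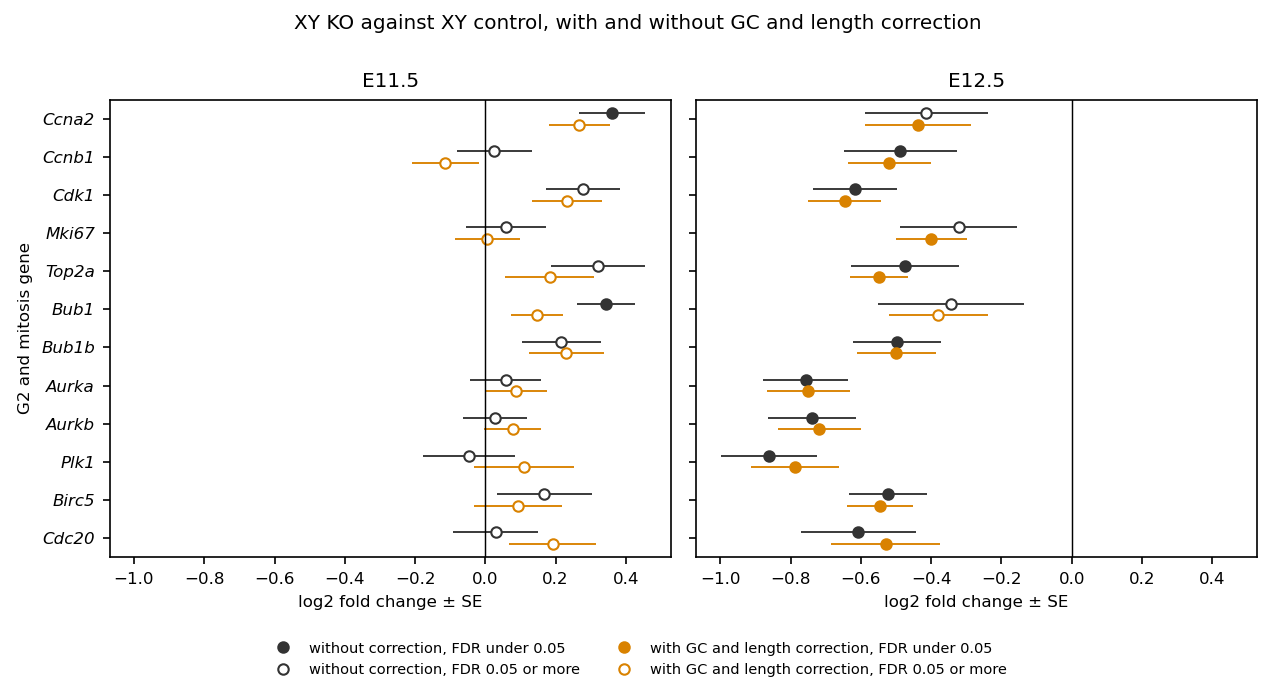
Log2 fold changes ± SE of the 12 G2 and mitosis genes in XY KO relative to XY control gonads at E11.5 (left) and E12.5 (right), before and after correction of each library for GC content and length, with filled points where the FDR was under 0.05. The 2 filled points at E11.5 become open after correction, while at E12.5 the genes stay below 0 in both fits.

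At E12.5 the mitotic genes were highest in XY control gonads, and most of them were lower in both XX control and XY KO gonads. XX control against XY control called 11 of 37 members, 9 lower and 2 higher, in a comparison where 23.8% of all genes were called, and the median change of the members was -0.14. All 9 lower calls but 1 were mitotic: 8 of 12 mitotic members were lower, against 12.4% of all genes, with a median of -0.48 and all 12 estimates negative. XY KO against XY control called 16 members, 13 lower and 3 higher, where 20.6% of all genes were called, and their median was -0.29 against -0.01 for all genes. Of the mitotic members 9 of 12 were lower, against 10.3% of all genes, with a median of -0.51 and all 12 estimates again negative. The 2 comparisons share the XY control libraries, so the values are given side by side and are not independent.

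Plk1 (chr7:122159439-122169873), the polo kinase of mitotic entry and spindle assembly, showed the largest fall in XY KO gonads. It stood at 114, 116 and 96.2 CPM in XY controls and at 48.5, 62.4 and 68.6 CPM in XY KO. The XX controls held 71.1, 84.3 and 71.4 CPM and the XX KO libraries 68.3, 70.5 and 71.1 CPM. Every XY control library was above every library of the other 3 genotypes. The difference was -0.86 ± 0.14 in XY KO (FDR 0.000336 by edgeR) and -0.52 ± 0.14 in XX control (FDR 0.0105), while XX KO differed from XX control by -0.11.

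The 2 Aurora kinases behaved alike in XY gonads. Aurka, which matures the spindle poles, stood at 93.0, 102 and 89.7 CPM in XY controls and at 53.6, 56.9 and 58.2 CPM in XY KO. Aurkb, the kinase of the chromosomal passenger complex, stood at 83.5, 85.9 and 74.3 CPM in XY controls and at 44.3, 48.4 and 53.3 CPM in XY KO. Neither gene had an overlap between these groups. Aurka was at 72.2, 75.3 and 64.9 CPM in XX controls and at 65.5, 56.7 and 49.9 CPM in XX KO. Aurkb was at 57.4, 45.8 and 46.5 CPM in XX controls and at 49.1, 51.8 and 47.7 CPM in XX KO, where the XX groups overlapped. The XY KO differences were -0.76 ± 0.12 for Aurka (FDR 0.000373) and -0.74 ± 0.12 for Aurkb (FDR 0.000543), both by edgeR. Their XX control differences from XY control were -0.42 ± 0.12 (FDR 0.0184) and -0.70 ± 0.12 (FDR 0.000657).

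Cdk1 and Birc5 followed the same order. Cdk1 stood at 167, 195 and 162 CPM in XY controls, at 115, 108 and 119 CPM in XY KO, at 117, 104 and 111 CPM in XX controls and at 129, 105 and 106 CPM in XX KO. Birc5, which encodes survivin of the passenger complex, stood at 88.2, 91.0 and 86.3 CPM in XY controls, at 58.5, 59.5 and 66.6 CPM in XY KO, at 65.8, 59.9 and 60.2 CPM in XX controls and at 72.0, 58.4 and 63.5 CPM in XX KO. The XY controls lay above all other libraries for both genes, and the other 3 genotypes overlapped. The XY KO differences were -0.62 ± 0.12 for Cdk1 (FDR 0.00162) and -0.52 ± 0.11 for Birc5 (FDR 0.00357) by edgeR. The XX control differences were -0.66 ± 0.12 (FDR 0.000773) and -0.51 ± 0.11 (FDR 0.00331).

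Of the other mitotic members, Bub1b, a kinase of the spindle checkpoint, fell by 0.50 in XY KO (FDR 0.0104) and was lower by -0.53 in XX control (FDR 0.00601). Top2a, the topoisomerase that untangles sister chromatids, was lower by -0.47 in XY KO (FDR 0.0414) and by -0.45 in XX control (FDR 0.0463). Its XY KO call was lost in 6 of 19 alternative fits and its XX control call in 12 of 19. Cdc20, the activator of the anaphase-promoting complex, stood at 173, 160 and 117 CPM in XY controls and at 87.9, 96.0 and 112 CPM in XY KO (-0.61 ± 0.16, FDR 0.0159), and at 150, 134 and 115 CPM in XX controls (-0.18, not called). Its XY KO call was lost in 4 of 19 alternative fits. The proliferation marker Mki67 was called in XX control alone (-0.53, FDR 0.0304), with -0.32 in XY KO (FDR 0.205). That call of Mki67 was lost in 4 of 19 alternative fits. Ccna2 (-0.41, FDR 0.117) and Bub1 (-0.34, FDR 0.286), the 2 genes that were higher in XY KO gonads at E11.5, were not called at E12.5.

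**Figure D3:**
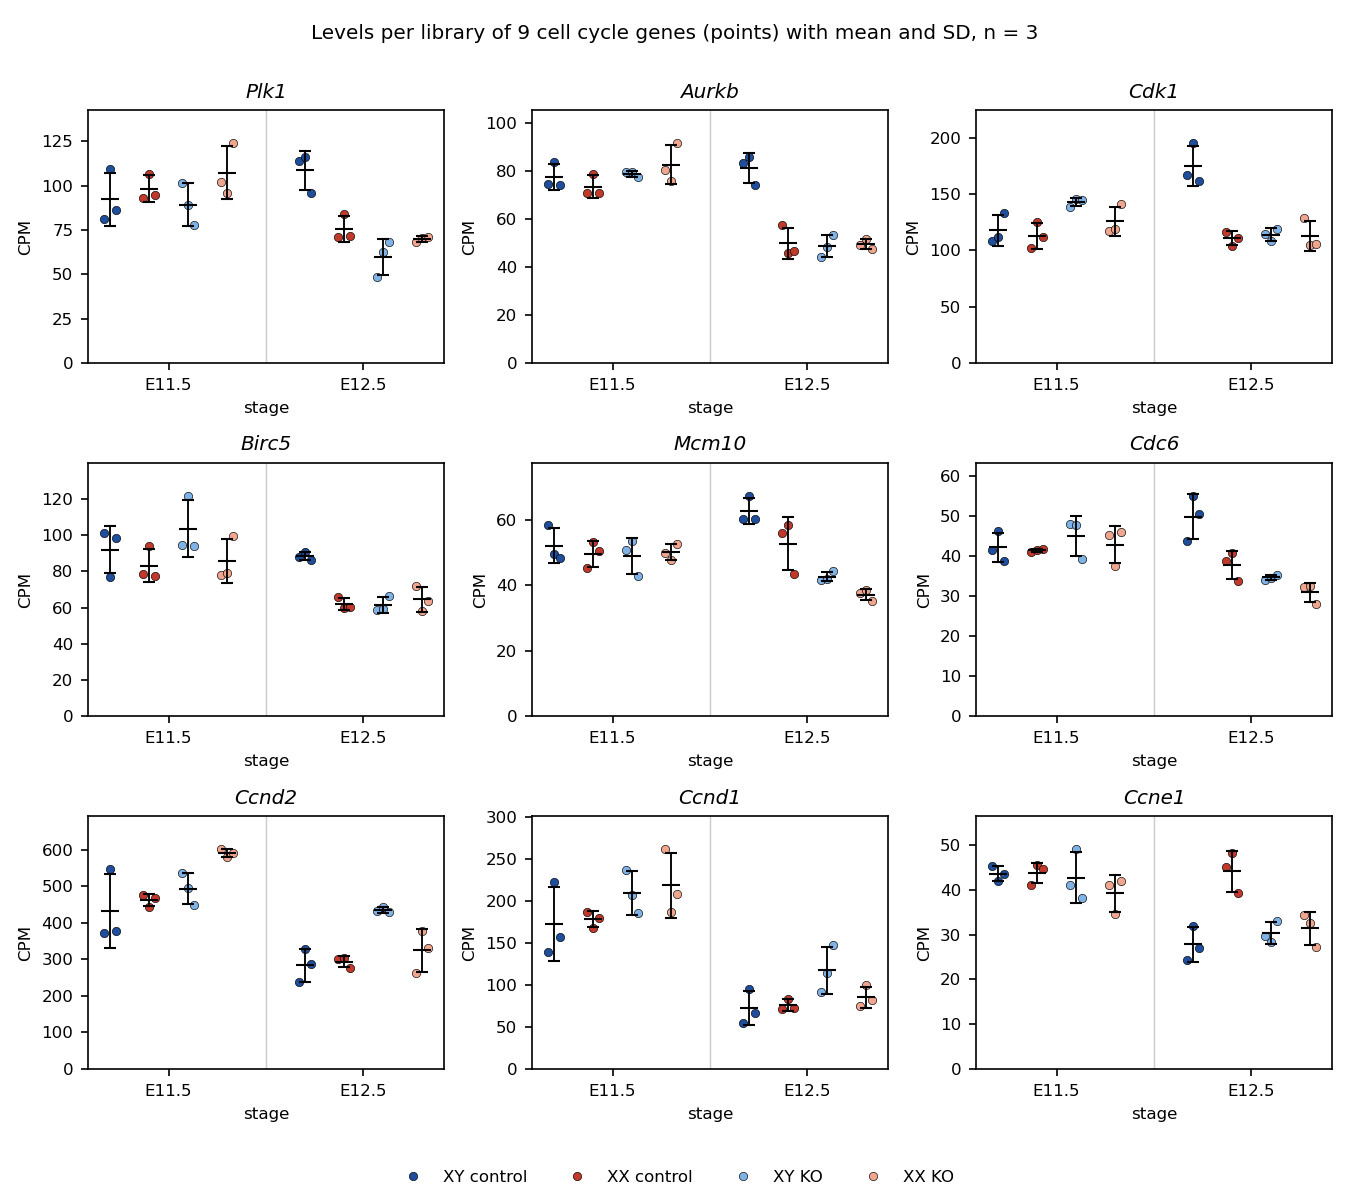
CPM of 9 members in each library (points) with the mean and SD of each genotype (bars), at E11.5 and E12.5. At E12.5 the XY control points of Plk1, Aurkb, Cdk1 and Birc5 lie above those of the other genotypes, for example 96.2 to 116 CPM for Plk1 against 48.5 to 84.3 CPM elsewhere.

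In XX gonads at E12.5, KO against control called 2 of 37 members, both lower, where 5.26% of all genes were called. An unadjusted p under 0.05 was found for 11 members and for 3385 of the 14348 genes tested. The median of the members was -0.21. Ccnb1, the cyclin that activates Cdk1 at mitotic entry, stood at 126, 135 and 112 CPM in XX controls and at 89.2, 82.7 and 56.2 CPM in XX KO. The groups did not overlap, XX KO replicate 3 was the lowest, and the difference was -0.71 ± 0.16 (FDR 0.0258 by edgeR). Without XX KO replicate 3, XX control replicate 1 or XX control replicate 2, neither of the 2 members was called, and without XX KO replicate 2 there were 6 calls, with 11.7% of all genes called. The 3 XX KO libraries also differed in base composition, with a Spearman rho to GC content of 0.32, 0.01 and 0.57 over 14325 genes, and 4 members were called after the GC and length correction, Mcm5 and Ccne1 being the added ones, a share near the 10.6% of all genes called in that fit. The same correction gave 21 members in XY KO against XY control at E12.5, with 28.6% of all genes called, of which Gins1, Pcna, Rrm1, Ccna2 and Mki67, all lower, were added. In XY gonads Ccnb1 stood at 113, 129 and 150 CPM in controls and at 88.4, 95.2 and 95.7 CPM in KO (-0.49 ± 0.16, FDR 0.0446), a call that 8 of 19 alternative fits did not keep.

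Mcm10, which helps start the helicase, was called in KO gonads of both sexes. It stood at 60.4, 67.3 and 60.4 CPM in XY controls and at 41.7, 42.0 and 44.3 CPM in XY KO. It stood at 56.1, 58.6 and 43.5 CPM in XX controls and at 37.6, 38.5 and 35.2 CPM in XX KO. The KO libraries lay below the controls in each sex, without overlap. The differences were -0.56 ± 0.13 in XY (FDR 0.00522) and -0.51 ± 0.12 in XX (FDR 0.0332) by edgeR, and their difference between the sexes was -0.05 (FDR 0.889). The XX call was lost in 6 of 19 alternative fits.

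Of the licensing and replication genes, 4 of 12 were lower in XY KO against XY control (Mcm2, Mcm5, Mcm10 and Cdc6), against 10.3% of all genes, with a median of -0.29 and 11 negative estimates. Mcm5, a subunit of the MCM helicase, stood at 309, 314 and 269 CPM in XY controls, at 197, 211 and 228 CPM in XY KO, at 271, 300 and 236 CPM in XX controls and at 225, 207 and 217 CPM in XX KO. Mcm2, another subunit, stood at 402, 359 and 317 CPM in XY controls, at 219, 274 and 275 CPM in XY KO, at 313, 332 and 269 CPM in XX controls and at 249, 254 and 254 CPM in XX KO. For both genes the KO and control libraries of each sex did not overlap, and of the 2 KO comparisons the XY differences passed the test: -0.49 ± 0.12 for Mcm5 (FDR 0.0088) and -0.49 ± 0.13 for Mcm2 (FDR 0.0148), by edgeR. Cdc6, which loads the helicase, was at 43.8, 55.0 and 50.6 CPM in XY controls, at 34.0, 34.6 and 35.4 CPM in XY KO, at 38.8, 40.7 and 33.8 CPM in XX controls and at 32.2, 32.5 and 28.1 CPM in XX KO. Its XY control libraries were the 3 highest of the 12. By edgeR, Cdc6 was lower by -0.52 ± 0.13 in XY KO (FDR 0.00783) and by -0.40 ± 0.13 in XX control (FDR 0.0314). The XX control call was lost in 7 of 19 alternative fits. The remaining 8 licensing and replication members (Mcm3, Mcm4, Mcm6, Mcm7, Cdt1, Gins1, Gins2 and Pcna) were called in none of the 5 comparisons at E12.5 by edgeR, with XY KO estimates from -0.30 to 0.12.

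None of the 3 nucleotide supply genes was called at E12.5 by edgeR. These were Rrm1 and Rrm2, the subunits of ribonucleotide reductase, and Tyms, which makes thymidylate. Their XY KO estimates ran from -0.26 to -0.15 and their XX KO estimates from -0.32 to -0.04. At an unadjusted p under 0.05 there were 1 in XY KO, 2 in XX KO and 1 in XX control against XY control, and DESeq2 called none of the 3. Over the 14348 genes tested, 4558, 3385 and 4827 had such a p in these comparisons, in that order.

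Of the 9 G1 and S regulators, 2 were called in XY KO against XY control, a share near the 20.6% of all genes, and both were higher: Ccnd1 and Ccnd2, D-type cyclins of G1. Ccnd2 stood at 237, 328 and 287 CPM in XY controls and at 433, 443 and 428 CPM in XY KO, with no overlap (0.62 ± 0.14, FDR 0.0071 by edgeR). It stood at 300, 303 and 276 CPM in XX controls and at 262, 378 and 332 CPM in XX KO, where the groups overlapped (0.15). Ccnd1 was at 55.3, 95.1 and 67.0 CPM in XY controls and at 92.0, 115 and 148 CPM in XY KO, where the lowest KO library lay below the highest control (0.70 ± 0.20, FDR 0.0215). That call of Ccnd1 was lost in 4 of 19 alternative fits. The third D-type cyclin, Ccnd3, was at 225, 185 and 153 CPM in XY controls and at 127, 152 and 180 CPM in XY KO (-0.29, FDR 0.238). Of the summed D-type cyclin level per length, Ccnd3 made up 19.6% in XY KO (18.1 to 21.1% over libraries) and 32.2% in XY controls (27.7 to 41.0%), while Ccnd2 made up 52.4% and 45.0%.

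Ccne1, the cyclin that drives entry into S phase with Cdk2, was the G1 and S gene called between the control sexes. It stood at 45.1, 48.2 and 39.2 CPM in XX controls and at 24.3, 32.0 and 27.1 CPM in XY controls, with no overlap (0.67 ± 0.14, FDR 0.00295 by edgeR). In XX KO it stood at 34.4, 32.6 and 27.3 CPM and in XY KO at 29.6, 28.3 and 33.0 CPM, so both KO groups lay below the XX controls. The XX KO difference of -0.49 missed the threshold (FDR 0.0599), as did the difference of the effect between the sexes (0.62 ± 0.20, FDR 0.0585), and DESeq2 called both (FDR 0.0154 and 0.0272). Ccne2, Cdk2, Cdk4, Cdk6, Ccnd3 and Rb1 were called in none of the 5 comparisons at E12.5 by edgeR. Cdk6 had the largest estimate among them, -0.72 in XX KO against XY KO (FDR 0.235).

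**Figure D4:**
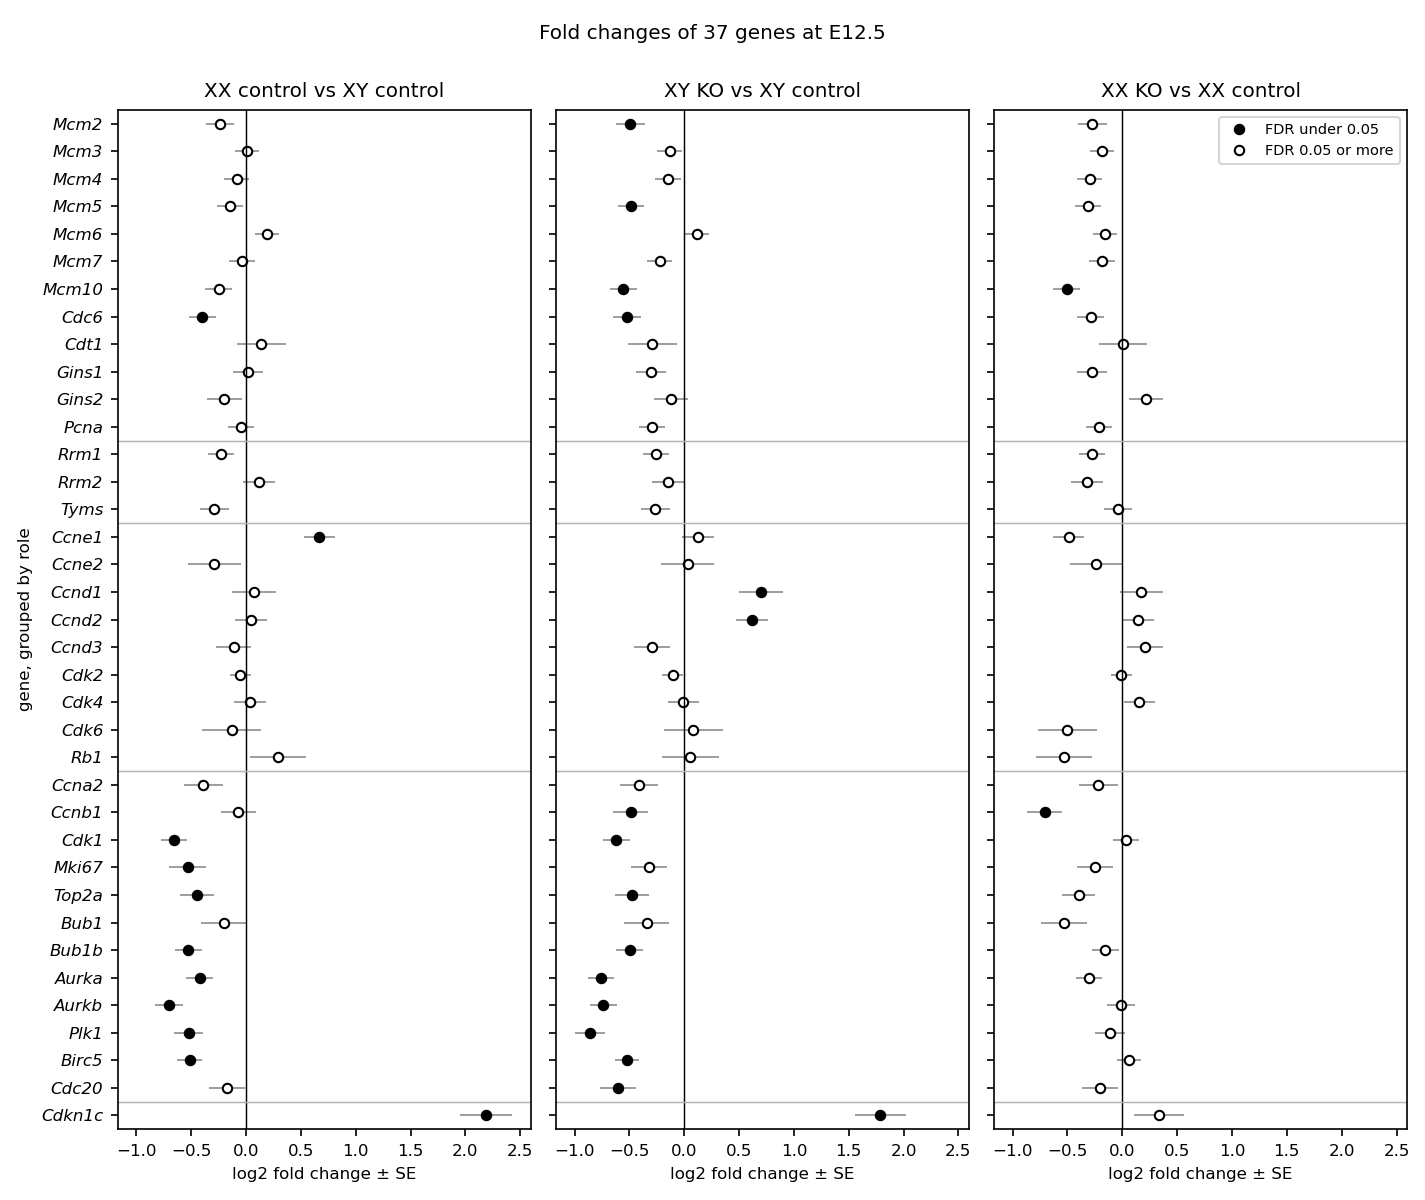
Log2 fold changes ± SE of the 37 genes at E12.5 in the comparisons named above the panels, grouped by role, with filled points where the FDR was under 0.05. The 12 G2 and mitosis genes all lie below 0 in XX control against XY control and in XY KO against XY control, and Cdkn1c lies farthest to the right in both, at 2.19 and 1.79.

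Cdkn1c (chr7:143458339-143461050), the p57 inhibitor of G1 and S phase CDKs, had the widest range of the 37 genes at E12.5. It stood at 122, 197 and 144 CPM in XY controls and at 387, 562 and 645 CPM in XY KO. The XX controls held 839, 542 and 723 CPM and the XX KO libraries 938, 689 and 1022 CPM. The XY controls lay below all other libraries, and XY KO overlapped XX control but not XX KO. Cdkn1c was higher by 2.19 ± 0.24 in XX control (FDR 8.93e-06) and by 1.79 ± 0.23 in XY KO (FDR 6.81e-05), both against XY control and by edgeR, and both calls held in all 19 alternative fits. In XX KO it differed from XX control by 0.33 ± 0.23 (FDR 0.389). At E11.5 it was not called in any of the 5 comparisons by edgeR or DESeq2, and the genotypes overlapped. It then stood at 1007, 952 and 939 CPM in XY KO, at 966, 894 and 752 CPM in XY controls, at 1050, 746 and 1028 CPM in XX KO and at 1217, 1046 and 816 CPM in XX controls.

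The other inhibitors of the p21 family were also lowest in XY controls at E12.5. Cdkn1a, which encodes p21, stood at 11.45, 14.8 and 16.0 CPM in XY controls, at 34.7, 46.4 and 52.9 CPM in XY KO, at 45.7, 44.0 and 35.4 CPM in XX controls and at 58.7, 52.6 and 59.2 CPM in XX KO. Cdkn1b, which encodes p27, stood at 61.8, 52.3 and 66.0 CPM in XY controls, at 123, 168 and 101 CPM in XY KO, at 191, 185 and 242 CPM in XX controls and at 177, 121 and 108 CPM in XX KO. For both genes the XY controls were the 3 lowest of the 12 libraries. Cdkn1a rose by 1.68 ± 0.18 in XY KO (FDR 7.69e-06) and Cdkn1b by 1.12 ± 0.21 (FDR 0.00131), by edgeR, and in XX control they were higher than in XY control by 1.58 ± 0.18 and 1.78 ± 0.21 (FDR 1.12e-05 and 2.11e-05). In XX KO against XX control Cdkn1b went the other way, with every KO library below the controls (-0.61 ± 0.21, FDR 0.0957), and Cdkn1a differed by 0.44 ± 0.17 (FDR 0.13), neither being called. Cdkn2c, the INK4 inhibitor p18 of Cdk4 and Cdk6, had another pattern: 3.04, 3.08 and 3.81 CPM in XX controls, 7.36, 6.50 and 6.61 CPM in XX KO, 6.90, 6.48 and 6.74 CPM in XY KO and 7.18, 5.59 and 5.56 CPM in XY controls. The XX controls were the 3 lowest libraries, and Cdkn2c was higher in XX KO by 1.05 ± 0.19 (FDR 0.0102). At E11.5 it was higher in KO gonads of both sexes, by 0.85 ± 0.20 in XY (FDR 0.0115) and 1.07 ± 0.20 in XX (FDR 0.00872), with 3.31 to 5.36 CPM in the 6 controls and 7.33 to 10.2 CPM in the 6 KO libraries. Cdkn3, a phosphatase of CDKs, was lower in XX control than in XY control (-0.61, FDR 0.044), and Cdkn2a and Cdkn2d were not called. Cdkn2b, also in this list, did not pass the filter on low counts at either stage.

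**Figure D5:**
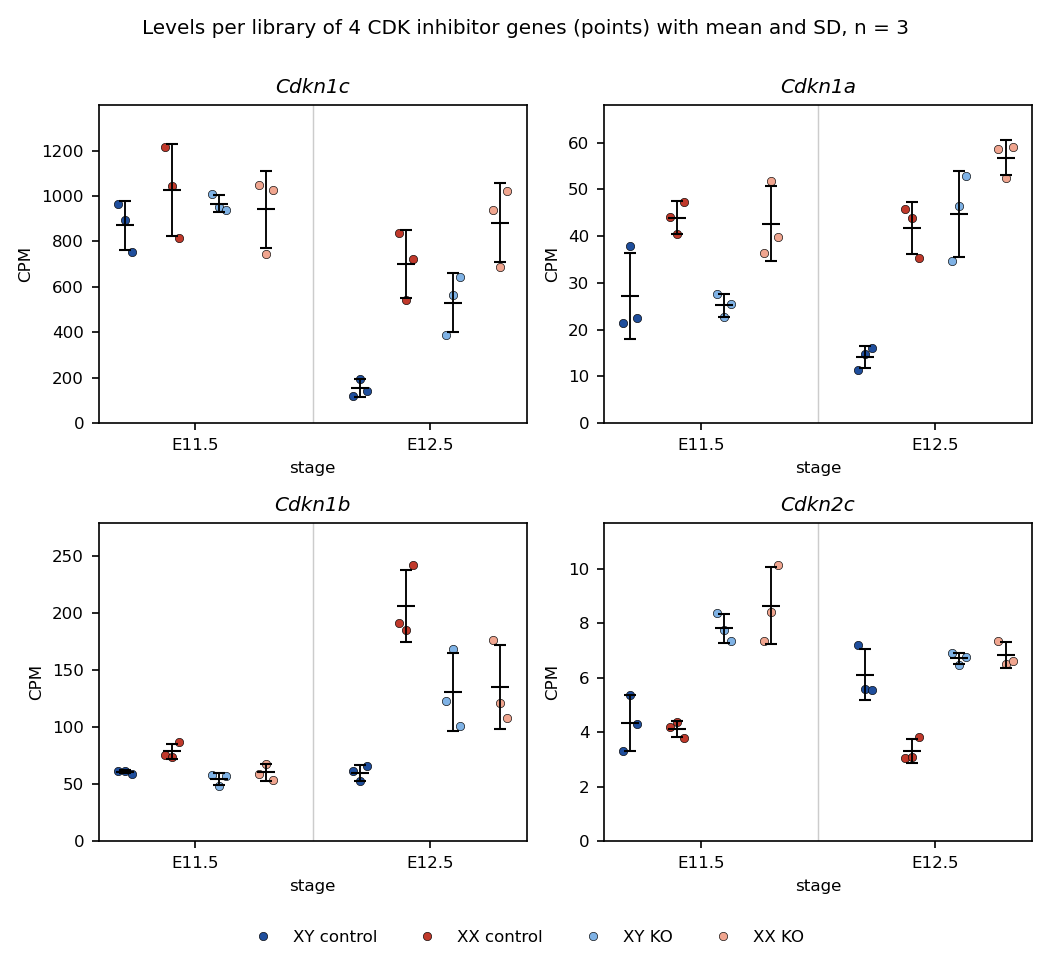
CPM of the CDK inhibitor genes in each library (points) with the mean and SD of each genotype (bars), at both stages. At E12.5 the XY controls lie lowest for Cdkn1c (122 to 197 CPM), Cdkn1a (11.45 to 16.0 CPM) and Cdkn1b (52.3 to 66.0 CPM), whereas for Cdkn2c the XX controls lie lowest (3.04 to 3.81 CPM).

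The effect of the deletion differed between XY and XX gonads for 5 of 37 members at E12.5, where 12.9% of all genes were called in this test. Plk1 (-0.75 ± 0.19, FDR 0.0178), Aurkb (-0.73 ± 0.17, FDR 0.0122), Cdk1 (-0.65 ± 0.17, FDR 0.0186) and Birc5 (-0.58 ± 0.16, FDR 0.0237) had a lower KO effect in XY than in XX gonads, where their own changes were -0.11, -0.01, 0.03 and 0.06 and none was called. Cdkn1c had a higher KO effect in XY than in XX gonads (1.45 ± 0.32, FDR 0.00763). All 5 values are the XY effect minus the XX effect, by edgeR. After the GC and length correction the value for Plk1 was -0.51 (FDR 0.0675), and 5 of 18 alternative fits did not keep the call of Birc5 and 3 of 18 that of Cdk1. XX KO against XY KO gave 0 of 37 members by edgeR, where 0.153% of all genes were called, and 0 by DESeq2. An unadjusted p under 0.05 was found by edgeR for 9 members and for 2752 of the 14348 genes tested. The mitotic members had a median difference of -0.10 between the 2 KO genotypes, with a range of -0.46 to 0.23. For the wider list of 58 mitosis genes the median was -0.19, with 44 estimates negative, 14 positive and 0 called. Without XX KO replicate 2, 5 members passed in this comparison (Ccnd2, Cdk6, Mki67, Top2a and Cdkn1c), and 12.8% of all genes did.

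Wider gene lists were counted in the same way at E12.5. Of 58 further mitosis genes, 24 were lower and 0 higher in XX control against XY control, where 12.4% of all genes were lower, with a median of -0.37, led by Racgap1 (-0.75) and Nuf2 (-0.74), which act in cytokinesis and at the kinetochore. In XY KO against XY control 34 were lower and 0 higher, where 10.3% of all genes were lower, with a median of -0.47, led by the ubiquitin-conjugating enzyme Ube2c (-0.88) and the phosphatase Cdc25c (-0.80). In XX KO against XX control 1 was lower, Cdca5 (-0.53, FDR 0.0497 by edgeR), where 1.85% of all genes were lower. Cdca5 encodes sororin of sister chromatid cohesion. Of 40 further origin and fork genes, 6 were lower and 0 higher in XY KO, led by Fen1 (-0.65) and Rnaseh2a (-0.54), against 10.3% of all genes lower, and 3 were lower and 2 higher in XX control, a smaller share than the 23.8% of all genes called. Among further nucleotide supply genes, Shmt1 was lower in XY KO (-0.68) and in XX control (-0.45) than in XY control, and Gart was higher in XX control (0.34). At E11.5 the origin gene Pola1 (0.45) and the purine synthesis gene Paics (0.41) were higher in XY KO gonads. The lists were chosen with results of these data known, so they are not independent evidence of a direction.

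Orc1, a subunit of the origin recognition complex, followed another pattern. At E12.5 it stood at 105, 72.4 and 58.1 CPM in XX controls, at 36.7, 36.0 and 41.7 CPM in XY controls, at 36.8, 53.9 and 44.5 CPM in XX KO and at 46.8, 65.1 and 61.0 CPM in XY KO. The XX controls lay above the XY controls, and they did not overlap with XX KO. Orc1 was higher in XX control than in XY control by 1.04 ± 0.21 (FDR 0.00154) and lower in XX KO than in XX control by -0.80 ± 0.20 (FDR 0.0369), by edgeR. At E11.5 it was lower in XX KO as well, at 32.5, 27.4 and 20.5 CPM against 47.4, 41.9 and 44.3 CPM in XX controls (-0.73 ± 0.15, FDR 0.0136).

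Among 12 E2F, DP and pocket protein genes, 2 were called in each of the 2 comparisons with XY control at E12.5, the atypical repressors E2f7 and E2f8. Both were lower in XX control (-0.72 and -0.60) and in XY KO gonads (-0.53 and -0.46). That share of 16.7% lay below the 23.8% and 20.6% of all genes called. At E11.5 the pocket protein gene Rbl2 was higher in KO gonads of both sexes, at 48.2, 53.9 and 47.9 CPM in XX KO and 50.1, 46.4 and 49.7 CPM in XY KO. The controls stood at 39.7, 33.1 and 40.4 CPM in XX and 34.0, 34.2 and 37.6 CPM in XY, so no control library reached a KO library. The differences were 0.47 ± 0.10 in XY (FDR 0.00756) and 0.41 ± 0.10 in XX (FDR 0.0356), by edgeR. E2f5 (0.35) and Rbl1 (0.37) were also higher in XY KO and E2f1 (0.38) in XX KO at E11.5. The calls at E11.5 were thus 3 of 12 in XY KO, against 12.7% of all genes, and 2 of 12 in XX KO, against 3.27%.

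Levels of cell type markers moved with these genotypes at E12.5. The summed level of 8 Sertoli cell markers was 1263 to 1898 CPM in XY controls and 42.3 to 84.2 CPM in the other 9 libraries, with 7 of 8 markers lower in both XX control and XY KO. Amh, a defining Sertoli marker, stood at 646 to 1132 CPM in XY controls and at 0.404 to 3.19 CPM elsewhere. The mesonephric markers, a list of 8, summed to 31.4 to 38.1 CPM in XY controls, 37.2 to 105 in XY KO, 42.7 to 53.5 in XX controls and 66.0 to 142 in XX KO. The summed level of 8 pre-granulosa markers was 309 to 345 CPM in XY controls and 955 to 1431 CPM in the other libraries, with 8 of 8 markers higher in both comparisons. A list of 6 Leydig and steroidogenic markers summed to 1177 to 2132 CPM in XY controls and 230.5 to 339 CPM elsewhere. The 10 germ cell markers summed to 1073 to 1336 CPM in XY controls, 782 to 941 in XY KO, 1022 to 1777 in XX controls and 442 to 925 in XX KO, with 4 of 10 called lower in XY KO and 2 of 10 in XX KO. Their part in the results on the cycle genes was not tested. In these bulk libraries fewer cells of a type and less RNA per cell cannot be told apart.

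The cluster is known for targets in the cell cycle, so the letters that match its seeds were counted in the members' 3′ UTRs. The mature microRNAs are shown from RefSeq (GRCm38.p6, plus strand of chromosome 14), grouped by the seed (bases 2 to 8, in capitals) that pairs with a target.
mmu-miR-17-5p, chr14:115043684-115043706: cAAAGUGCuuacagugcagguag
mmu-miR-20a-5p, chr14:115044183-115044205: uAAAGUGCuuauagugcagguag
mmu-miR-18a-5p, chr14:115043867-115043889: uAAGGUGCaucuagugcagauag
mmu-miR-19a-3p, chr14:115044048-115044070: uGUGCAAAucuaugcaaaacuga
mmu-miR-19b-3p, chr14:115044358-115044380: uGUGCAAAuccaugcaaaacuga
mmu-miR-92a-3p, chr14:115044476-115044496: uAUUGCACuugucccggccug
At least 1 match to bases 2 to 8 of these families lay in the annotated 3′ UTR (GENCODE M21, GRCm38) of 12 of 37 members (32.4%), against 33.4% of 13682 tested genes. By role, 5 of 9 G1 and S genes (55.6%) and 1 of 12 mitotic genes (8.33%, Ccna2) held one, as did 3 of 12 licensing and replication genes and 2 of 3 nucleotide supply genes. The 3′ UTRs ran from 531 to 10217 bases in the G1 and S genes and from 62 to 3352 bases in the mitotic genes. The counts were not adjusted for this length, so the roles cannot be compared by them.

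The D-type cyclins that were higher in XY KO gonads at E12.5, Ccnd1 and Ccnd2, each held a miR-17 and a miR-19 match. Ccnd3, which was not called, held none. Their 3′ UTRs differ in length, at 2676 bases for Ccnd1, 5173 for Ccnd2 and 915 for Ccnd3. Cdkn1c held a miR-92 match, Cdkn1a a miR-17 match and Cdkn1b a miR-19 match. The sites are shown in the direction of the transcript with 10 bases on each side, with the match in capitals and its position on GRCm38.
Ccnd1, miR-17 family, chr7:144931676-144931682, minus strand: ccatttcaaaGCACTTTtggtcagcta
Ccnd1, miR-19 family, chr7:144931005-144931011, minus strand: cagtaggtaaTTTGCACacctctggct
Ccnd2, miR-17 family, chr6:127129340-127129346, minus strand: cattagaaaaGCACTTTgaaaattttg
Ccnd2, miR-19 family, chr6:127128824-127128830, minus strand: ttttttttttTTTGCACaattataatt
Cdkn1c, miR-92 family, chr7:143458863-143458869, minus strand: tctgaaaactGTGCAATgtattgagaa
Cdkn1a, miR-17 family, chr17:29099829-29099835, plus strand: gacctgaataGCACTTTggaaaaatga
Of the other members with a match, Mcm3, Mcm7, Gins2, Rrm1, Rrm2, Ccne2, Cdk2 and Rb1 were not called in either KO comparison at either stage by edgeR. Ccna2, with a miR-18 and a miR-19 match, was higher in XY KO gonads at E11.5.

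Mcm7 also carries microRNAs of the same seeds. This gene, on the minus strand of chromosome 5, holds Mir106b, Mir93 and Mir25 on its own strand, outside its coding exons, at chr5:138165737-138165818, chr5:138165523-138165610 and chr5:138165321-138165404.
mmu-miR-106b-5p: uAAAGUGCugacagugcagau
mmu-miR-93-5p: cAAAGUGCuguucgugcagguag
mmu-miR-25-3p: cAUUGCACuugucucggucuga
Mcm7 mRNA stood at 285, 308 and 263 CPM in XY controls, at 229, 243 and 261 CPM in XY KO, at 281, 308 and 246 CPM in XX controls and at 255, 246 and 235 CPM in XX KO at E12.5. The XY KO libraries lay at or below the lowest XY control, and neither KO difference was called (-0.22 in XY, FDR 0.204; -0.18 in XX, FDR 0.352). The libraries did not measure mature microRNAs.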

How the data were processed

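Per the labels and the study's methods, RNA of 24 pools of gonads (4 genotypes, 2 stages, 3 libraries each) was sequenced as paired 75-base reads. The E11.5 libraries were made with the NEBNext Ultra II Directional kit and the E12.5 libraries with the TruSeq stranded mRNA kit. The authors aligned reads to mm10 and summarised them by gene using R subread (align, featureCounts), and the deposited values are these raw counts in 1 table per stage. Which annotation, strand option and rule for multi-mapping reads were used is not given in the sources used here, and 15 of the 37 genes have exons that overlap another annotated gene (14 of them a gene on the opposite strand), so their counts are uncertain to that extent. Tables of another mutant line hold 12 per-sample columns that were not used here, and columns of the authors' own comparisons were not used.

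A gene was tested where 2 or more of a stage's 12 libraries reached 1 CPM, which left 14217 genes (E11.5) and 14348 genes (E12.5). Each stage was fitted with edgeR 4.0.16 (R 4.3.3, limma 3.58.1) as 1 model with a mean per genotype, TMM scaling and the robust quasi-likelihood test, with Benjamini-Hochberg adjustment over all genes. The SE was derived from the log2 fold change and its F statistic. Alternatives were DESeq2 1.42.0, RLE scaling, library size scaling, no filter, the replicate number as a block, only the groups compared, and each library left out. A correction for GC content and length was added after seeing the data. On counts simulated for XY KO against XY control with 200 changed genes, edgeR called 95% of genes changed by 2-fold and 62% by 1.5-fold at E11.5, and 83% and 27% at E12.5.

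Named by rule were the called members with the largest changes and at least 1 from each role, up to 2 called genes each way from each wider list, and the CDK inhibitor and E2F lists. Of the wider mitosis list, Knl1, Sgo1 and Sgo2a had no match by symbol. Counts for the wider nucleotide supply list are not reported here. The members, lists and tests were chosen with earlier results of these data known. Replicates were distinct libraries, with chi-square per degree of freedom of 7.09 to 79.1 between pairs. Sequences come from RefSeq GRCm38.p6 and GENCODE M21 tables.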

Additional observations from a re-analysis of the deposited data

Results flagged for a closer look

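The effect of the deletion was compared between XY and XX gonads at E12.5 by edgeR (XY effect minus XX effect, log2). The genes called were 5 of 37 members, a share near the 12.9% of all genes called. Of the wider lists, 6 of 58 mitosis genes, 1 of 40 origin and fork genes and 1 of 12 E2F genes were called. From the wider CDK inhibitor list 3 of 6 genes were called. Among the 37 genes these were Plk1 (-0.75), Aurkb (-0.73), Cdk1 (-0.65), Birc5 (-0.58) and Cdkn1c (1.45). Among the wider lists they were the mitosis genes Spc24 (-0.76), Cdc25c (-0.73), Ube2c (-0.63), Cdca8 (-0.63), Kif22 (-0.57) and Racgap1 (-0.56), the CDK inhibitor genes Cdkn1b (1.73), Cdkn1a (1.23) and Cdkn2c (-0.92), the origin gene Orc1 (1.40) and the E2F partner Tfdp2 (0.56). The mitosis genes fell in XY KO gonads, whereas Cdkn1a and Cdkn1b rose there. Orc1 was lower in XX KO gonads, and Cdkn2c was higher there.

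Ccna2 and Cdk1 had estimates of opposite sign at the 2 stages in XY KO against XY control, with every XY KO library above the XY controls at E11.5 and below them at E12.5. These 2 were picked from the 37 members because their libraries separated in this way. How many of all genes do so was not counted. Ccna2 was called at E11.5 (0.36) and not at E12.5 (-0.41, FDR 0.117), and Cdk1 was called at E12.5 (-0.62) and not at E11.5 (0.28, FDR 0.0907). The difference between the stages was not tested, since tissue and library kit differ between them. After the correction for GC content and length, the E11.5 values were 0.27 for Ccna2 (FDR 0.0821) and 0.23 for Cdk1 (FDR 0.184).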

How the results depend on the processing

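No member's call changed sign in any alternative fit. Of 36 calls over the 10 comparisons, DESeq2 kept 36, RLE scaling 35, no filter 34, library size scaling 33 and the GC and length correction 33; using only the groups compared kept 26 of 31. The GC and length correction gave 0 members in XY KO against XY control at E11.5 and 4 in XX KO against XX control at E12.5. Using only the groups compared gave 0 and 0 for these, and 1 in XX KO against XX control at E11.5.

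With 1 library left out, the number of members called at E11.5 ranged from 0 to 6 in XX control against XY control, from 0 to 6 in XY KO against XY control and from 0 to 1 in XX KO against XX control. The highest count in each came without XY control replicate 2, and the lowest in XY KO against XY control (0) without XY KO replicate 1. At E12.5 the ranges were 7 to 13 in XX control against XY control, 12 to 16 in XY KO against XY control, 0 to 6 in XX KO against XX control, 0 to 5 in XX KO against XY KO and 3 to 6 for the difference of the effect. The 7 came without XX control replicate 3 or XY control replicate 2. In XX KO against XX control, 6 were called without XX KO replicate 2 and 0 without XX control replicate 1, XX control replicate 2 or XX KO replicate 3. The 5 came without XX KO replicate 2, and the 3 without XX control replicate 2 or XY KO replicate 2. The cause of these changes was not tested.

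The replicate numbers did not pair the libraries: same-numbered deviations correlated from -0.30 to 0.45 at E11.5 and from -0.51 to 0.39 at E12.5, and 5 of 12 and 3 of 12 libraries lay closest to their own number. With the number as a block, 15 of the 16 members called in XY KO against XY control at E12.5 were called, Ccnb1 being lost, and the other 9 counts were unchanged. On simulated counts a 1.5-fold change was called for 62% at E11.5 and 27% at E12.5 of genes. That simulation changed 200 genes, whereas 2951 genes were called in XY KO against XY control at E12.5. With fewer changed genes the FDR threshold is harder to pass, so these shares do not tell how often a changed member would be called. A member that was not called at E12.5 can still differ between genotypes.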
